A study of Mus musculus with 2 samples.

Results

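Large artery endothelial cells line the wide conduit arteries, and here they were the barcodes in which the genes Cytl1, Sfrp1 and Gpc6 were well counted. They came from mouse lungs in which a Ve-cadherin cre switched on the red fluorescent protein tdTomato. This cre is driven by the promoter of Cdh5, a junction gene of endothelium. Red cells were sorted and read by the 10x Genomics 3' method, which counts each captured transcript once through a unique molecular identifier (UMI). The aKO group was 1 library from C57BL/6J mice aged 10 to 12 weeks, and the aWT group was 1 library from mice of the same strain and age. The title speaks of a mouse model for type 2 of hereditary hemorrhagic telangiectasia, in which ALK1, the product of Acvrl1, is affected, but the labels name no deleted gene, no deletion time and no number of animals. Both libraries share the cre, the reporter and the sort. The mark is a lineage mark, so a cell stays red whatever it later becomes, and any cell whose ancestor used the promoter can be red.

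A barcode was a member if it held at least 500 genes and at most 15% mitochondrial UMIs, at least 3 UMIs of Cytl1, Sfrp1 and Gpc6 together, more of these than of 4 venous or 3 lymphatic genes, at least 1 UMI of Pecam1 or Cdh5, and fewer than 3 of Mki67 and Top2a. The rule gave 1416 members of 26436 kept barcodes, 896 of 10785 in aKO and 520 of 15651 in aWT. Members were thus chosen by their counts, so every contrast of members with other cells is a description, and the rule genes are no finding. Levels are CPM, a gene's share of the UMIs summed over a set of barcodes in 1 library, scaled in the usual way so that all genes sum to the same total. Each log2 ratio sets aKO over aWT with 5 CPM added to both levels, which understates the difference of low genes. Each group was 1 library, so no error between replicates and no test could be had, and "higher" and "lower" are statements of size in these 2 libraries. Intervals are 95% exact Poisson or Clopper-Pearson intervals and cover counting error only.

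The endothelium of large arteries differs from that of small vessels in its junctions, matrix and transcription factors. Connexins such as the Gja5 and Gja4 products couple arterial cells, Notch ligands and receptors set arterial fate, and matrix proteins such as elastin, fibulins and matrix Gla protein belong to the elastic artery wall. Circulating BMP9 binds ALK1 with the co-receptor endoglin and the type II receptor BMPR2 on endothelial cells, and SMAD proteins then switch on genes such as Id1, Id3, Smad6 and Smad7.

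The libraries held 75950364 UMIs over 11045 barcodes for aKO and 72270260 UMIs over 15996 barcodes for aWT. Members had a median of 9745 UMIs in aKO and 6769 in aWT, against 5628 and 3964 in the other endothelial barcodes of aKO and aWT. Summed over members, 9744320 UMIs stood behind the aKO levels and 3822479 behind the aWT levels. Of the barcode sequences, 48 occurred in both deposited libraries, and 2 of them were members in both. Xist stood at 512 CPM in aKO members and 0.785 CPM in aWT members, and the Y-linked Ddx3y at 0.103 CPM in aKO and 119 CPM in aWT, so sex and group cannot be told apart in any comparison. The tdTomato transcript was at 64.9 CPM in aKO members and 121 CPM in aWT members.

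The receptor gene Acvrl1 stood at 513 CPM in aKO members and 420 CPM in aWT members, a log2 ratio of 0.28, while in the other endothelial barcodes it was at 491 CPM in aKO and 1039 CPM in aWT (-1.07). In strong members it was at 460 CPM in aKO and 285 CPM in aWT (0.68), and in the members under the strong grade defined below at 554 CPM in aKO and 619 CPM in aWT (-0.16). A 3' read need not fall in a deleted exon, so these counts do not check the labels. Eng, which encodes endoglin, was at 379 CPM in aKO members and 647 CPM in aWT members (-0.77).

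The fixed markers bore out the label for the members as a whole, though not for all of them. Of the markers that the rule did not use, Mgp, which encodes matrix Gla protein, was at 3605 CPM in aKO members and 7016 CPM in aWT members, against 206 and 161 CPM in the other endothelial barcodes. Gja5, the arterial connexin 40 gene, was at 210 CPM in aKO members and 303 CPM in aWT members, against 6.90 and 28.7 CPM in the other endothelial barcodes. Sulf1, a sulfatase that trims heparan sulfate, was at 982 CPM in aKO members and 1345 CPM in aWT members, against 82.2 and 90.5 CPM. All 3 had a UMI in 53.3% of aKO and 64.4% of aWT members, and none had one in 3.68% of aKO and 0.385% of aWT members. Among rule genes, Cytl1, a small secreted protein gene, supplied 76.5% of the rule's UMIs in aKO and 72.9% in aWT. The Wnt antagonist gene Sfrp1 was seen in 38.3% of aKO and 62.3% of aWT members, and the glypican gene Gpc6 in 42.1% and 28.7%.

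**Figure D1:**
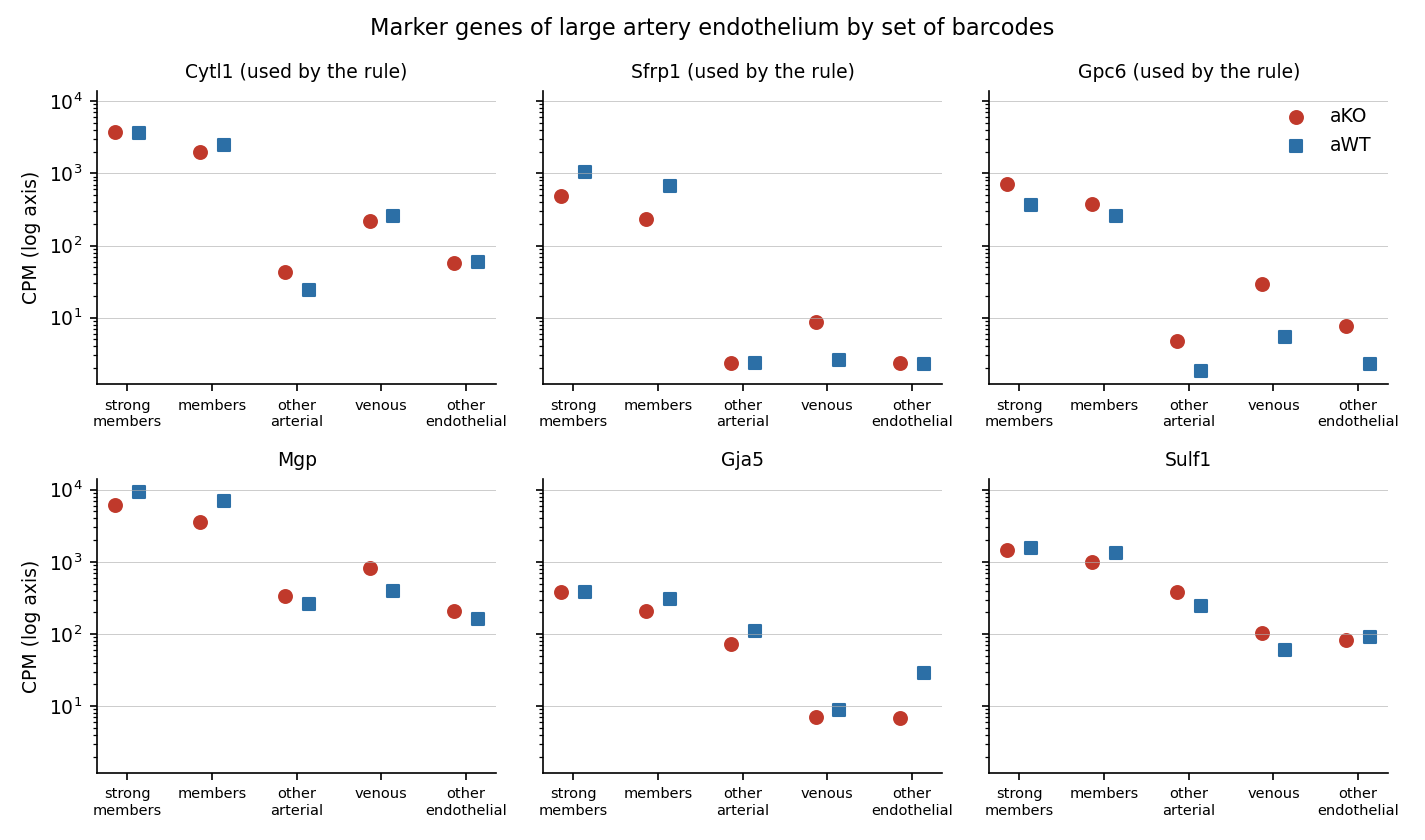
Levels of the 6 marker genes in 5 sets of barcodes, as CPM on a log axis, with aKO as circles left of aWT as squares; each point is 1 library. Mgp, Gja5 and Sulf1, which the rule did not use, stood higher in members than in other arterial, venous or other endothelial barcodes of the same library, for instance Gja5 at 210 and 303 CPM in members against 72.6 and 111 CPM in other arterial barcodes.

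Because the rule counts UMIs without regard to depth, members ran from barcodes with a trace of the rule genes to barcodes rich in them. Strong members, a grade added after the data had been seen, held at least 0.2% of their UMIs in the rule genes and numbered 406 in aKO (45.3% of members) and 317 in aWT (61.0%). In aKO, Gja5 was at 59.2 CPM in the members with under 0.05% of UMIs from the rule genes and at 461 CPM in those with 0.5 to 1%. In aWT the same grades held 196 and 490 CPM. Mgp stood at 972 and 7361 CPM in these aKO grades and at 2964 and 10833 CPM in these aWT grades. The arterial kinase gene Bmx and the elastin gene Eln followed the same order between these grades, Bmx at 77.1 and 636 CPM in aKO and Eln at 369 and 1385 CPM. The summed level of 12 general capillary identity genes went the other way, at 4464 and 1028 CPM in aKO and 6127 and 1617 CPM in aWT. Under the 0.2% line, Gja5 stood at 79.5 CPM in aKO members, close to the 72.6 CPM of the other arterial barcodes of aKO. The other markers outside the rule stood above those barcodes there, Mgp at 1637 against 332 CPM and Sulf1 at 626 against 379 CPM. The summed arterial identity genes, which include the genes that chose those barcodes, were at 5714 against 6024 CPM. The general capillary sum was 4023 CPM in the aKO members under the line, against 1410 CPM in aKO strong members. By Gja5 and these sums, though not by Mgp and Sulf1, the label was weak in the aKO members under the line. At the edge of the rule, aKO barcodes with exactly 3 rule UMIs held 70.2 CPM of Gja5 and 695 CPM of Mgp, and those with 2, just outside, held 33.4 and 255 CPM. In aWT the barcodes with 3 held 223 and 2551 CPM and those with 2 held 200 and 1557 CPM, so the line cut through a gradient in both libraries.

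**Figure D2:**
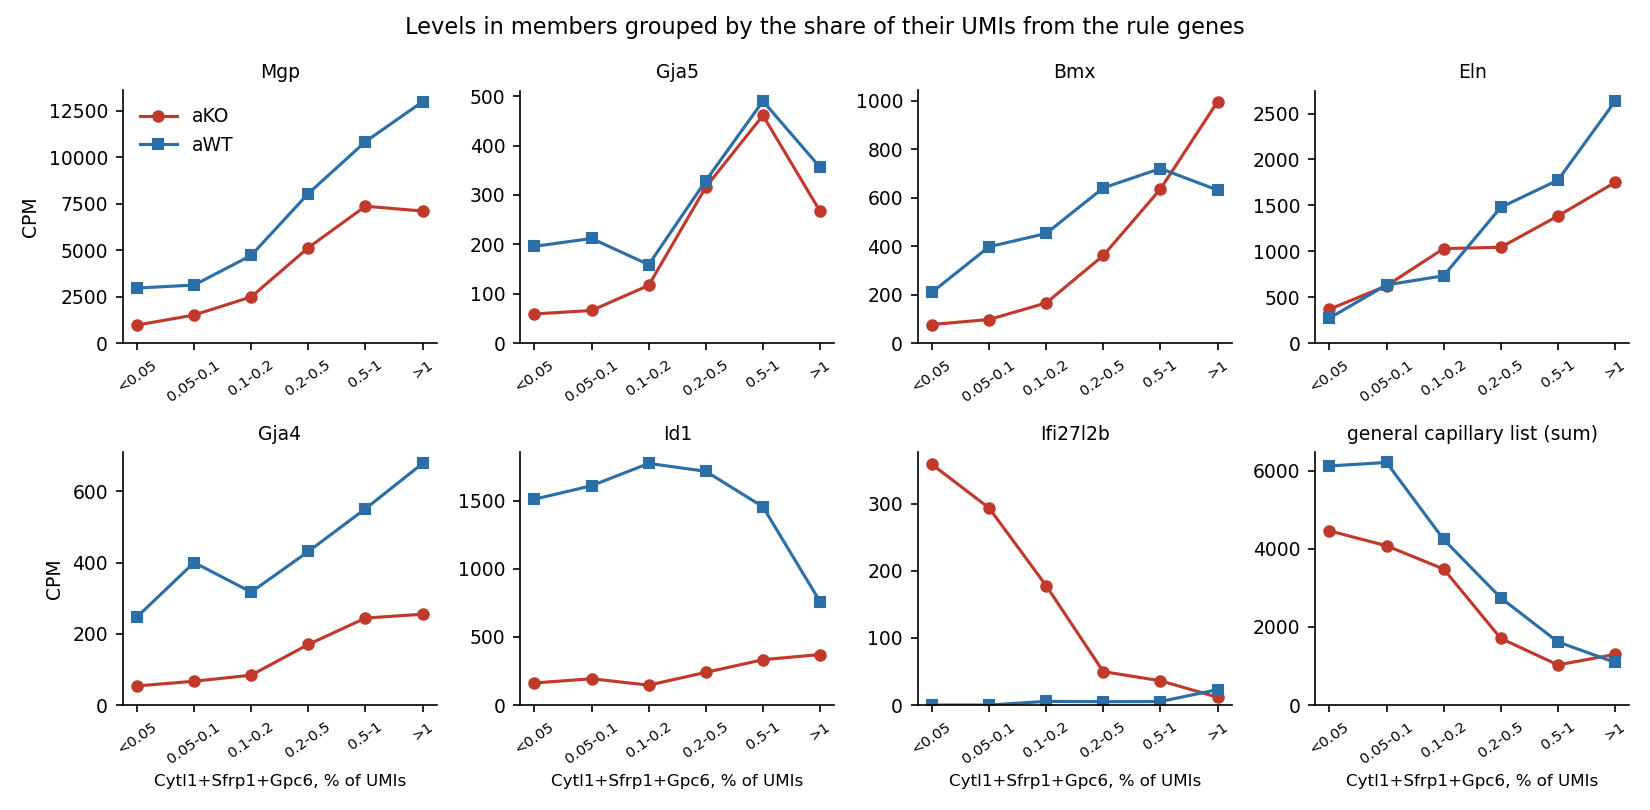
Levels in members (CPM, axis from 0) grouped by the percent of their UMIs from Cytl1, Sfrp1 and Gpc6, for aKO (circles) and aWT (squares); the groups over 1% hold 10 aKO and 17 aWT members. Mgp, Bmx, Eln and Gja4 were higher in the 0.5 to 1% group than in the lowest group of each library, the general capillary sum was lower, and Id1 was lower in aKO than in aWT in all 6 groups.

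The members split into 11 clusters by their own expression, and 83.5% of them lay in clusters with at least 90% of cells from 1 library. A cluster may therefore stand for a library and not for a type, and their sizes are given as a description. Clusters 1, 4 and 10 had the largest shares of strong members of the 11, at 93.9%, 92.3% and 97.4%, and the highest Gja5, at 434, 486 and 442 CPM. Their summed arterial identity genes were at 8056, 11319 and 7511 CPM. Cluster 1 had 311 aKO and 0 aWT members, which allows an aWT share of up to 0.577% (3 counts), and was led by S100a4, the secreted peptidase gene Klk10 and the tetranectin gene Clec3b. Cluster 4 had 6 aKO and 176 aWT members and was led by Nebl, Fblim1, the guidance gene Slit2 and Sfrp1. Cluster 10 had 0 aKO (up to 0.335%) and 38 aWT members and was set apart by Itgbl1 at 515 CPM, Gxylt2 at 1480 CPM, the retinol and alcohol dehydrogenase gene Adh7 at 308 CPM and the collagen IV genes Col4a3 at 432 CPM and Col4a4 at 577 CPM. It also held developmental transcription factor genes, with Isl1 at 97.9 CPM against 0.451 CPM in the other members, Nkx2-3 at 109 against 1.81 CPM and Twist1 at 163 against 5.34 CPM. Hoxa9 and Hoxb6, genes of positional identity, were at 50.8 CPM each.

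The other clusters had fewer strong members and less Gja5. Cluster 2 (218 aKO, 1 aWT) was led by Gprc5b and the protease gene Adamts9, and kept Gja5 at 174 CPM. Cluster 3 (212 aKO, 0 aWT) was led by the histone deacetylase gene Hdac9 at 795 CPM, Ucp2 and Npr3, with Gja5 at 44.7 CPM, Mgp at 427 CPM and 3.30% strong members. It held 23.7% of aKO members. The general capillary identity genes summed to 5888 CPM in cluster 3, above its arterial identity sum of 5041 CPM. Other endothelial barcodes of aKO held 6761 and 2565 CPM of these sums, so the label was weak in this cluster. Cluster 5 (4 aKO, 131 aWT) was led by Olfm2 at 465 CPM and held the chemokine gene Cxcl12 at 897 CPM with Gja5 at 350 CPM. Its summed arterial identity genes, at 11849 CPM, were the highest of the 11 clusters. Clusters 6 (19 aKO, 79 aWT) and 7 (85 aKO, 0 aWT) held the vein-associated factor gene Nr2f2 at 454 and 496 CPM and little Gja5, at 30.5 and 15.7 CPM. Cluster 6 was led by ciliated airway genes such as Sec14l3 and Ccdc153, and cluster 7 by Masp1, Lrg1 and Fabp4. Clusters 8 (17 aKO, 58 aWT) and 9 (20 aKO, 33 aWT) were led by general capillary genes (Sema3c, Glp1r) and aerocyte genes (Car4, Fibin), and 80.0% and 96.2% of their barcodes were among the top doublet scores. Cluster 11, with 4 aKO and 4 aWT members, held mesothelial and fibroblast genes (Msln at 2418 CPM, Dcn at 6143 CPM) and 98.4 CPM of Pecam1.

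**Figure D3:**
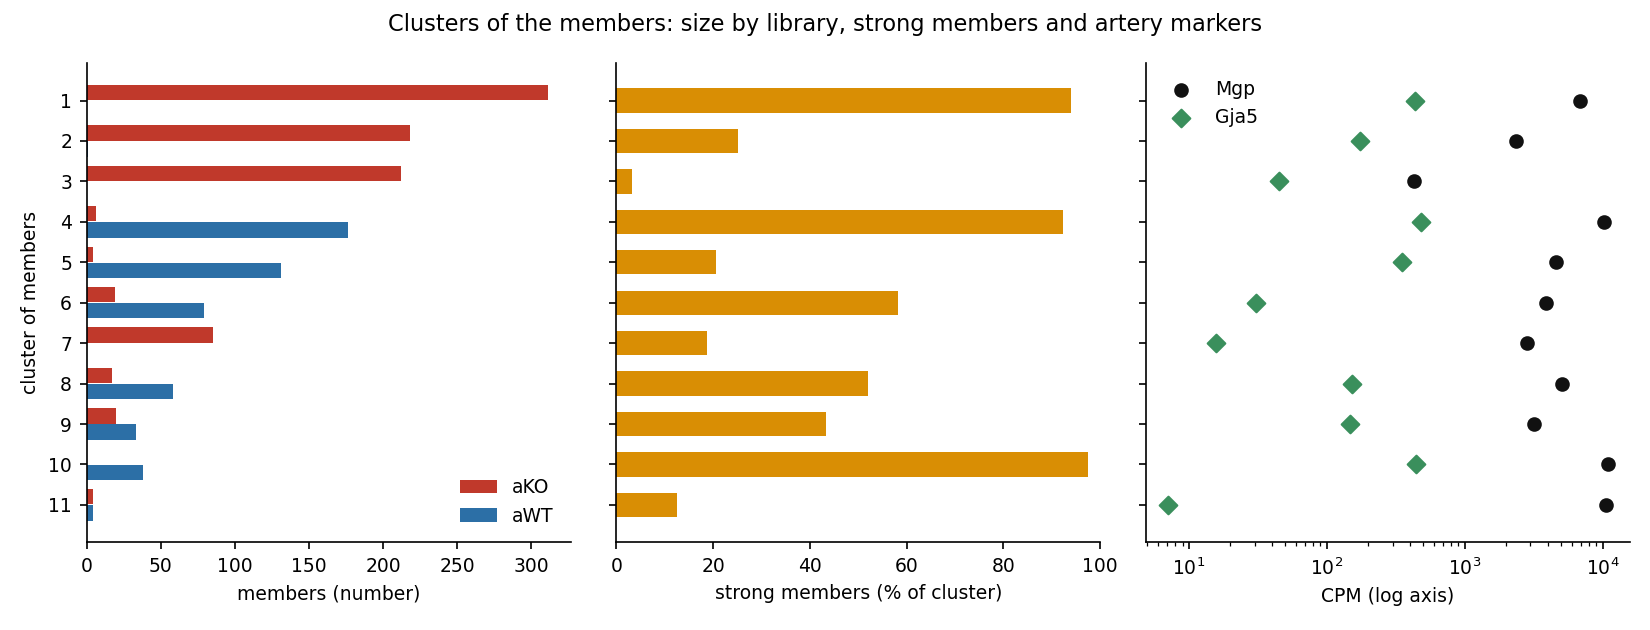
The 11 clusters of members: number of members of aKO (upper bar) and aWT (lower bar), percent of the cluster that were strong members, and the levels of Mgp and Gja5 (CPM, log axis) over both libraries. Clusters 1, 4 and 10 combined over 90% strong members with Gja5 above 400 CPM, and most clusters were nearly all from 1 library.

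Beyond the markers, members shared a set of genes in both libraries. Of 4180 genes with 50 CPM, 179 (4.28%) were at least 2-fold higher in members than in the other endothelial barcodes of both libraries. Besides Mgp, Sulf1 and Gja5, the leading ones were Arhgap24, a GTPase regulator gene (110 CPM in aKO members and 228 CPM in aWT members, against 2.65 and 3.35 CPM in the others), and Clec3b (311 and 143 CPM, against 16.9 and 8.07 CPM). Next came Enpp6, a choline phosphodiesterase gene, the fibulin family gene Efemp1, the epoxide hydrolase gene Ephx2, the Wnt antagonist gene Dkk2, the apolipoprotein gene Apoe and the serine protease gene Htra1. Apoe was at 361 CPM in aKO members and 1196 CPM in aWT members, against 32.6 and 51.7 CPM.

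Set against the other arterial barcodes, which held Gja4 and Dkk2 but few rule genes (112 in aKO, 1017 in aWT), 114 of 3931 genes (2.90%) were at least 2-fold higher in members in both libraries and 48 (1.22%) at least 2-fold lower. The carboxypeptidase gene Cpe was at 568 CPM in aKO members and 736 CPM in aWT members, against 34.3 and 5.17 CPM in the other arterial barcodes. Col3a1, a fibrillar collagen gene, and Ptger4, a prostaglandin E2 receptor gene, were also higher, Ptger4 at 60.3 and 75.1 CPM against 2.39 and 3.33 CPM. Col3a1 was at 111 CPM in aKO members and 134 CPM in aWT members. Venous barcodes held Cpe at 740 CPM in aKO and 353 CPM in aWT, and Col3a1 at 149 and 35.3 CPM. In aKO both thus stood higher in venous barcodes than in members. Cluster 7 held 62.5% of the aKO Col3a1 UMIs of members and cluster 6 held 49.8% of the aWT ones. On the lower side were the chemokine receptor gene Cxcr4 (11.8 and 7.06 CPM, against 98.9 and 59.7 CPM), Cxcl12, the receptor kinase gene Kit, the lipase gene Lpl, Sema3c, Tspan18, Nckap5 and Casc4. Kit was at 31.1 CPM in aKO members and 56.0 CPM in aWT members, against 166 and 464 CPM. Dkk2, a gene that selected the other arterial barcodes, stood at 398 CPM in those of aKO and 9 CPM in those of aWT, so that set was not alike in the 2 libraries. The general capillary identity genes, Kit and Sema3c among them, summed to 4660 CPM in other arterial barcodes of aKO and 16577 CPM in those of aWT. In members that sum was 2877 CPM in aKO and 3500 CPM in aWT. The part of this capillary signal in the lower genes was not tested.

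Members made up 8.63% of aKO endothelial barcodes (8.10 to 9.19%) and 3.38% of aWT endothelial barcodes (3.10 to 3.68%). The deeper aKO barcodes could more easily reach 3 UMIs, and after every barcode was thinned to 2000 UMIs before the rule was applied the shares were 5.84% in aKO and 2.73% in aWT. Strong members made up 3.91% of aKO endothelial barcodes (3.55 to 4.30%) and 2.06% of aWT endothelial barcodes (1.84 to 2.30%). The aKO share was the higher in each of these counts, but its size moved more than 1.5 times between them. Both libraries were sorted, and the yield of each cell type from the sort was not measured.

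Genes that answer to BMP9 and ALK1 stood lower in aKO members. Of 15 listed genes measured at 5 CPM or more, 13 were at least 1.5-fold lower and 1 at least 1.5-fold higher, with a median log2 ratio of -1.24. Over all 10955 genes at that level, 8.95% were lower, 7.08% were higher and the median was 0.01. In strong members the same 13 genes were lower and the median was -0.91, where 7.74% of all genes were lower and 7.40% higher. Id1 and Id3, inhibitors of helix-loop-helix factors, were at 218 and 233 CPM in aKO members (Poisson intervals 209 to 228 and 223 to 242 CPM). In aWT members they were at 1622 and 1568 CPM (1582 to 1663 and 1528 to 1608 CPM), giving log2 ratios of -2.87 and -2.73. In strong members Id1 was at 282 CPM in aKO and 1592 CPM in aWT, and Id3 at 321 and 1637 CPM. Id2, the third family member of the list, was at 75.4 CPM in aKO members and 449 CPM in aWT members (-2.50).

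The inhibitory SMADs, which BMP signalling induces and which hold it back, followed. Smad7 was at 156 CPM in aKO members and 639 CPM in aWT members (-2.00), and Smad6 at 219 and 704 CPM (-1.66). Among transcription factors, Hey1 was at 31.8 CPM in aKO and 82.1 CPM in aWT (-1.24), Hey2, an arterial Notch target, at 48.7 and 116 CPM (-1.17), and Atoh8 at 0.924 and 9.94 CPM (-1.33). Bmpr2, encoding the type II receptor, stood at 608 CPM in aKO members and 1107 CPM in aWT members (-0.86), the pseudoreceptor gene Bambi at 26.2 and 62.5 CPM (-1.12), and the tetraspanin gene Tspan18 at 34.9 and 122 CPM (-1.67). Smad9 was low in both, at 1.33 and 5.23 CPM. The exceptions were Ackr3, a scavenging chemokine receptor gene, at 553 CPM in aKO and 303 CPM in aWT (0.85), and Tmem100, a target of ALK1, at 590 and 450 CPM (0.38). In strong members Tmem100 was at 218 CPM in aKO and 224 CPM in aWT (-0.04).

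After thinning to 2000 UMIs, an Id1 UMI was seen in 20.1% of aKO members (17.5 to 22.9%) and 81.5% of aWT members (77.8 to 84.9%), against 46.2% and 92.9% before thinning. Among strong members the thinned shares were 28.8% in aKO and 81.9% in aWT, and among other endothelial barcodes 11.5% and 79.1%. For Id3 the thinned shares were 21.8% in aKO members and 90.9% in aWT members, and for Smad6 29.9% and 66.3%. Id1 in aKO members (218 CPM) lay above its level in the other endothelial barcodes of aKO (104 CPM), and over those barcodes the list's median was -1.85. The level of free RNA in these libraries was not measured, so the aKO shares are not read as expression in so many cells.

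The sequences before the start sites of 3 of these genes that lay lower together are shown, as the windows in which a SMAD motif could lie. They are the 250 bases before the annotated start (RefSeq, GRCm38.p6), and capitals mark a match to GGCGCC.
Id2, chr12:25096093-25096342, minus strand: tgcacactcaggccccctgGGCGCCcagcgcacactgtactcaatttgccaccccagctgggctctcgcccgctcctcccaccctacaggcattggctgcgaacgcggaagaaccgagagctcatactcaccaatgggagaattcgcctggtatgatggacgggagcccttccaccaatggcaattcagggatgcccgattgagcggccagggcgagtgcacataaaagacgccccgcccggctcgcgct
Id3, chr4:136143572-136143821, plus strand: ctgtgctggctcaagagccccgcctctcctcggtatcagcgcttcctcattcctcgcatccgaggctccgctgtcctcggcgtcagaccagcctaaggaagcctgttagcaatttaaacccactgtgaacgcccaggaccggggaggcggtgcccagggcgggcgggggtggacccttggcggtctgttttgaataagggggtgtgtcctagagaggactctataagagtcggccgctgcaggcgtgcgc
Smad6, chr9:64022060-64022309, minus strand: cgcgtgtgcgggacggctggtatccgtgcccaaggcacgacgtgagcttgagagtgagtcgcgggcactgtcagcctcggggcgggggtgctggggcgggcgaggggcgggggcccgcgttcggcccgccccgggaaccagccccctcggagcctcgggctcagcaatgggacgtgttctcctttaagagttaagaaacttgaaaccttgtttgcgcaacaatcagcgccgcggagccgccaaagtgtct
Both GGCGCC and the SMAD palindrome GTCTAGAC were searched; each reads the same on both strands, and the pair do not overlap. GGCGCC lies at -231 from the start site of Id2 and in neither of the other windows, and 9.59% of 32851 promoter windows of this length hold it. Of the windows of the lower genes Smad9 and Hey2, not printed, the Smad9 window holds it at -51 and the Hey2 window does not. GTCTAGAC was in none of these 5 windows and is held by 0.167% of those windows. These matches describe letters in a window, and nothing on binding is drawn from them.

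**Figure D4:**
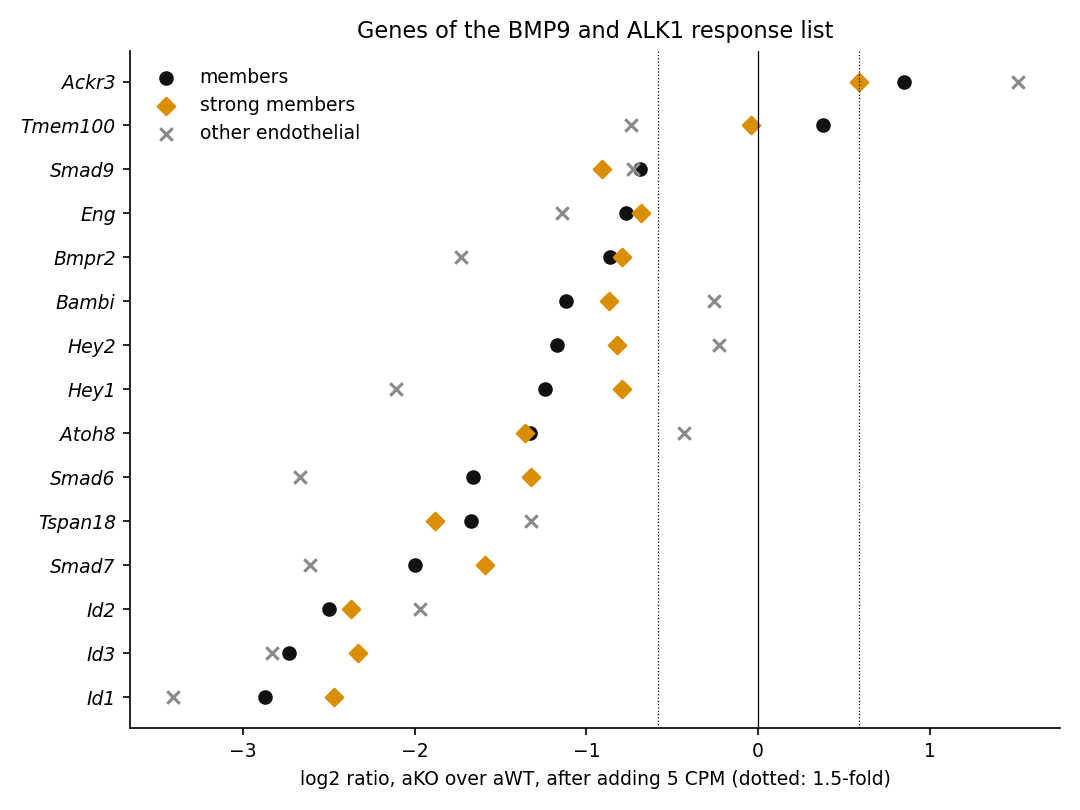
Log2 ratios of aKO over aWT, after adding 5 CPM, for the 15 measured genes of the BMP9 and ALK1 response list in members (circles), strong members (diamonds) and other endothelial barcodes (crosses); dotted lines mark 1.5-fold. In members 13 genes lie left of the lower line, from Smad9 at -0.69 to Id1 at -2.87, and Ackr3 lies right of the upper line at 0.85.

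Other BMP and TGF-beta components went both ways, with 2 of 22 higher and 5 lower (median 0.02). The ligand gene Bmp6 was at 318 CPM in aKO members and 719 CPM in aWT members (-1.16), while the signalling SMAD gene Smad1 was at 130 and 57.6 CPM (1.11) and Tgfb1 at 127 and 70.1 CPM (0.82). Bmp4, a ligand gene, was at 243 CPM in aKO and 204 CPM in aWT (0.25). In strong members the Smad1 ratio was 0.53 and the Bmp6 ratio -0.87.

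Arterial identity genes were moderately lower in aKO members. Of 20 measured, 8 were at least 1.5-fold lower and 1 higher (median -0.48), and in strong members 6 were lower and 1 higher (median -0.29). Over all genes 8.95% were lower and 7.08% higher in members. The list's median was -0.44 in other endothelial, -0.51 in other arterial and -0.28 in venous barcodes, so this difference was not particular to members. Gja4, the connexin 37 gene, was at 127 CPM in aKO members and 418 CPM in aWT members (-1.68), and at 203 and 481 CPM in strong members (-1.22). Gja5 was at 377 CPM in aKO strong members and 385 CPM in aWT strong members (-0.03), so connexin 37 and connexin 40 transcripts stood apart there. Of the 4 vascular connexin genes 2 were lower in members and 0 higher (median -0.56); the second was Gja1, at -0.60 in members but 0.32 in strong members. Bmx was at 278 CPM in aKO members and 552 CPM in aWT members (-0.97), and the ligand gene Efnb2 at 368 and 668 CPM (-0.85). Cxcl12 was at 107 CPM in aKO and 277 CPM in aWT (-1.33). The arterial factor gene Sox17 (124 and 112 CPM), the Notch ligand gene Dll4 (141 and 148 CPM) and the semaphorin gene Sema3g (237 and 237 CPM) lay within 1.5-fold. Dkk2 was the gene higher in aKO, at 148 CPM against 82.4 CPM in aWT (0.81), with strong members at 197 CPM in aKO and 108 CPM in aWT (0.83).

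In the Notch list, 2 of 14 genes were higher and 2 lower (median -0.11). The ligand gene Dll1 was at 218 CPM in aKO members and 87.4 CPM in aWT members (1.27), and the feedback gene Nrarp at 225 and 116 CPM (0.93), while the targets Hey1 and Hey2 were lower as given above. All 4 kept their 1.5-fold calls in strong members. Among Wnt genes, Sfrp1, a rule gene, was at 230 CPM in aKO members and 659 CPM in aWT members (-1.50), and at 482 and 1038 CPM in strong members (-1.10). The receptor gene Fzd7 was low, at 2.05 CPM in aKO and 7.59 CPM in aWT (-0.84), and the co-receptor gene Lrp6 was at 79.0 and 117 CPM (-0.54). Of 15 Wnt genes measured, 1 was higher and 2 lower (median -0.15). The lower ones include Sfrp1, which chose the members, so its ratio is no finding.

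The artery wall matrix list had 5 of 17 genes lower and 1 higher in members (median -0.37), and 2 of 16 lower and 0 higher in strong members (median -0.23). Mgp was at 6123 CPM in aKO strong members and 9180 CPM in aWT strong members (-0.58). Fbln5, a fibulin gene needed for elastic fibres, was at 393 CPM in aKO members and 635 CPM in aWT members (-0.68), and at 438 and 735 CPM in strong members (-0.74). Eln was at 902 CPM in aKO and 1208 CPM in aWT (-0.42), the latent TGF-beta binding protein gene Ltbp4 at 685 and 1061 CPM (-0.63), and the crosslinking enzyme gene Lox at 55.1 and 90.3 CPM (-0.66). Fbln2 was nearly level, at 522 and 516 CPM (0.02). In the other endothelial barcodes these genes lay the other way, with Eln at 0.85, Fbln5 at 0.99 and Ltbp4 at 0.89; the difference between the sets was not tested, and the 0.42 log2 gap in Eln within members is under 1.5-fold.

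Among heparan sulfate genes 5 of 18 were lower and 0 higher (median -0.22). The proteoglycan gene Hspg2 was at 148 CPM in aKO members and 248 CPM in aWT members (-0.72), the epimerase gene Glce at 33.1 and 59.1 CPM (-0.75) and Sulf2 at 92.1 and 151 CPM (-0.68). Gpc3 was at 19.5 and 72.7 CPM (-1.67), but 97.4% of its aKO UMIs and 98.9% of its aWT UMIs came from the 8 barcodes of cluster 11. Calcification and osteogenic genes numbered 7 measured, 3 of them lower and 0 higher (median -0.50): Mgp, the periostin gene Postn (-1.78), with 91.7% of its 48 aWT UMIs in cluster 11 and 1 UMI in aKO, and the phosphatase gene Alpl, at 1.13 CPM in aKO and 17.0 CPM in aWT (-1.84). Cluster 9, with aerocyte genes and 96.2% of its barcodes among the top doublet scores, held 60.0% of the aWT Alpl UMIs. In strong members Alpl was at 0.702 CPM in aKO and 11.4 CPM in aWT (-1.53). The bone factor gene Runx2 was at 3.90 CPM in aKO and 7.59 CPM in aWT (-0.50).

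Basement membrane genes split, with 4 of 18 higher and 4 lower (median -0.11). The collagen IV chains of the alpha3, alpha4 and alpha5 network were lower: Col4a3 was at 9.44 CPM in aKO members and 77.7 CPM in aWT members (-2.52), Col4a4 at 17.9 and 114 CPM (-2.38) and Col4a5 at 7.39 and 24.9 CPM (-1.27). Cluster 4 held 41.1% of the aWT Col4a3 UMIs. Its Col4a3 level was 97.6 CPM, against 432 CPM in cluster 10, which had 38 aWT and 0 aKO members. In strong members Col4a3 was at 19.2 CPM in aKO and 119 CPM in aWT (-2.36). The common chains Col4a1 (140 and 210 CPM, -0.57) and Col4a2 (69.7 and 94.7 CPM, -0.42) differed by less than 1.5-fold. The laminin gene Lama4 was at 228 CPM in aKO and 92.1 CPM in aWT (1.26), and the matrix gene Tinagl1 at 678 and 422 CPM (0.68).

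Across 4347 genes with 50 CPM in 1 library, 94 (2.16%) were at least 2-fold higher in aKO members and 133 (3.06%) at least 2-fold lower. In strong members 64 of 4226 genes (1.51%) were higher and 105 (2.48%) lower. Of the 94, 53 were also 2-fold higher in strong members and 0 had a ratio under 0 there. Of the 133, 88 were also 2-fold lower in strong members and 2 had a ratio over 0.

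The highest gene in aKO members was Ifi27l2b (ENSMUSG00000021208, chromosome 12, 103450898 to 103457223, mm10), an interferon-inducible gene, at 176 CPM (168 to 185) in aKO and 4.45 CPM (2.59 to 7.12) in aWT, a log2 ratio of 4.26. It was at 280 CPM in aKO members under the 0.2% line and 43.3 CPM in aKO strong members, against 5.72 CPM in aWT strong members. Its neighbour Ifi27l2a (chromosome 12, 103442167 to 103443680) was at 194 CPM in aKO and 22.8 CPM in aWT (2.85), but at 44.0 and 19.8 CPM in strong members (0.98). The pair are close relatives, and reads shared between them could be split in counting. Hdac9 was at 301 CPM in aKO and 34 CPM in aWT (2.97), with 58.8% of the aKO UMIs in cluster 3, and at 100 and 33.0 CPM in strong members (1.47). Ltc4s, the leukotriene C4 synthase gene, was at 52.3 and 1.05 CPM (3.25). Cldn15, a claudin gene, was at 170 CPM in aKO and 25.9 CPM in aWT (2.51), and kept that size in strong members, at 180 and 28.6 CPM (2.46). D5Ertd615e (3.76), Gm48228 (2.85), Trp53i11 (2.44), Rtl8a (2.41), Bcl6b (2.36), N4bp3 (2.35) and Wfdc1 (2.15) completed the 12 highest. In strong members these ratios were smaller: D5Ertd615e was at 2.65, Gm48228 at 2.45, the repressor gene Bcl6b at 1.94, Rtl8a at 1.70, N4bp3 at 1.45, Trp53i11 at 1.42 and Wfdc1 at 1.11. Ltc4s was at 1.61 there, with 15.7 CPM in aKO and 1.76 CPM in aWT. Rtl8a is on the X chromosome, where sex is a further difference between the libraries. Except for Cldn15 and Trp53i11, cluster 3 held more of the aKO UMIs of these 12 genes than any other cluster. Its share was 51.2% for Ifi27l2a and 41.8% for Ifi27l2b. In other endothelial barcodes the 12 ratios ran from 0.66 for Wfdc1 to 3.91 for Ifi27l2b, so these differences were not particular to members.

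Among the 12 lowest beside Id1, Id2, Id3 and Col4a3 was Adh7 (chromosome 3, 138217760 to 138233382), at 2.26 CPM in aKO and 53.6 CPM in aWT (-3.01); in strong members it was at 3.27 CPM in aKO and 87.1 CPM in aWT (-3.48). Cluster 10 supplied 41.5% of its aWT UMIs. Itgbl1, an integrin-like gene, was at 7.59 CPM in aKO and 64.6 CPM in aWT (-2.47), with 57.5% of its aWT UMIs in cluster 10. Igfbp6 (14.2 and 132 CPM, -2.84) and Rarres2 (14.0 and 128 CPM, -2.82) came almost wholly from cluster 11, which held 92.7% and 98.8% of their aWT UMIs, and their strong member ratios were -1.87 and -1.25. Sftpc, the surfactant protein C gene of alveolar type 2 cells, was at 6.26 CPM in aKO members and 89.5 CPM in aWT members (-3.07). It was at 158 CPM in the other endothelial barcodes of aKO and 2181 CPM in those of aWT. Gm42418 (2479 and 13279 CPM, -2.42) and AY036118 (257 and 1736 CPM, -2.73) overlap each other on chromosome 17 and ribosomal RNA sequence, and Cmss1 was at 331 and 1961 CPM (-2.55). These 3 differed by about the same size in other endothelial barcodes, at -1.98, -2.45 and -2.36.

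**Figure D5:**
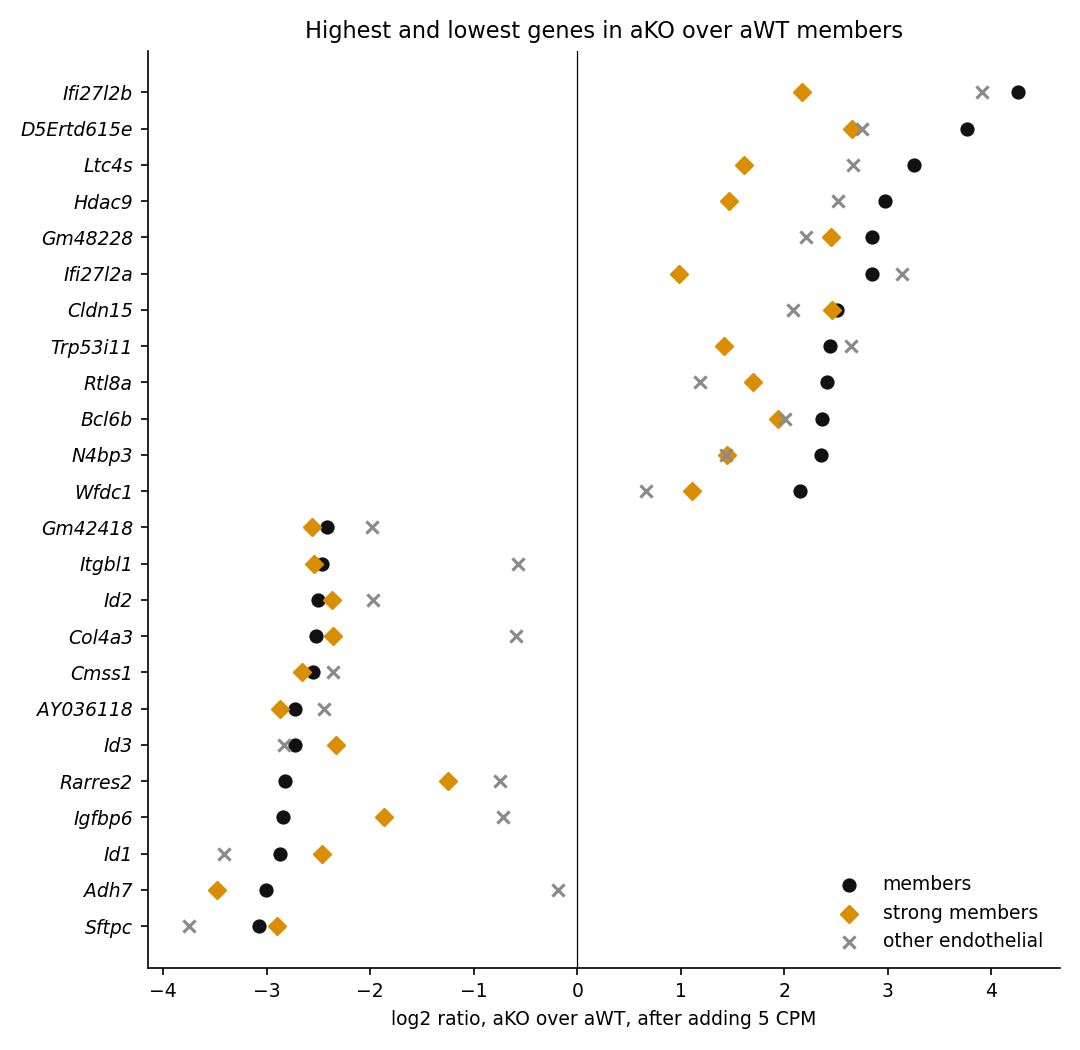
Log2 ratios of aKO over aWT, after adding 5 CPM, of the 12 highest and 12 lowest genes in members (circles), with the same genes in strong members (diamonds) and other endothelial barcodes (crosses). Ifi27l2b lies at 4.26 in members and 2.17 in strong members, Cldn15 at 2.51 and 2.46, Adh7 at -3.01 and -3.48, and Rarres2 at -2.82 and -1.25.

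Small calcium-binding and lectin genes stood higher in aKO members as a group. Of 17 galectin, S100 and annexin genes, 9 were at least 1.5-fold higher and 0 lower (median 0.61), and 8 of the 9 were also higher in strong members. Over all genes 7.08% were higher in members. The list's median was 0.70 in other endothelial, 1.21 in other arterial and 0.71 in venous barcodes, so this difference was not particular to members. S100a4 was at 155 CPM in aKO members and 38.7 CPM in aWT members (1.87), and at 280 and 52.4 CPM in strong members (2.31). Lgals1, the galectin 1 gene, was at 109 CPM in aKO and 29.8 CPM in aWT (1.71), S100a10 at 997 and 397 CPM (1.32) and Anxa2 at 776 and 369 CPM (1.06). S100a6 was at 1394 CPM in aKO and 733 CPM in aWT (0.92). In the coagulation list 3 of 10 genes were higher and 1 lower (median 0.28), with S100a10 and Anxa2 among the higher ones. Vwf, the von Willebrand factor gene, was the lower one, at 1116 CPM in aKO members and 2210 CPM in aWT members (-0.98).

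Vasoactive and flow genes went both ways. Of 14 vasoactive genes 5 were higher and 2 lower (median 0.32), and in strong members 2 were higher and 1 lower. Nos3, the endothelial nitric oxide synthase gene, was at 390 CPM in aKO members and 218 CPM in aWT members (0.82), and at 446 and 273 CPM in strong members (0.70). The endothelin receptor gene Ednrb was at 238 CPM in aKO and 99.7 CPM in aWT (1.21), Ptgs2 at 50.5 and 26.4 CPM (0.82, but 0.51 in strong members), and the ligand gene Edn1 at 229 and 361 CPM (-0.64). Cluster 7 held 67.5% of the aKO Ptgs2 UMIs and cluster 6 held 62.4% of the aWT ones. For Ednrb, cluster 3 held 53.0% of the aKO UMIs and cluster 9, led by aerocyte genes, held 59.3% of the aWT ones. The Ednrb ratio was 0.76 in strong members and -0.34 in other endothelial barcodes. The flow-induced factor genes Klf2 (2436 and 2787 CPM) and Klf4 (823 and 796 CPM) lay within 1.5-fold, and over 14 flow genes 1 was higher and 3 lower (median -0.03).

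Junction genes had 3 of 13 higher and 1 lower (median 0.03). Cldn5, the main endothelial claudin gene, was at 3234 CPM in aKO members and 1561 CPM in aWT members (1.05), and at 2865 and 1545 CPM in strong members (0.89). F11r was at 388 and 176 CPM (1.12) and Jam2 at 643 and 359 CPM (0.83), both junctional adhesion molecule genes, while Cdh5, the VE-cadherin gene, was at 660 and 1013 CPM (-0.61). Cdh5, the lower gene of the list, is named in the rule, so its ratio is no finding. Guidance genes had 10 of 20 lower and 0 higher (median -0.53), among them Slit2 at 25.5 CPM in aKO and 68.5 CPM in aWT (-1.27), Plxna4 at 323 and 644 CPM (-0.98) and Sema3c at 44.9 and 199 CPM (-2.03), with 69.8% of the aWT Sema3c UMIs in cluster 8. In the VEGF and sprouting list 6 of 18 were lower and 3 higher (median -0.13): Vegfa was at 100 CPM in aKO and 347 CPM in aWT (-1.74), Nrp1 at 215 and 562 CPM (-1.36), the receptor gene Kdr at 90.7 and 218 CPM (-1.22) and the tip cell gene Esm1 at 0.205 and 16 CPM (-2.01). Cluster 9 held 54.1% of the aWT Kdr UMIs, and the Kdr ratio in strong members was -1.07.

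The mesenchymal transition list had 2 of 14 higher and 1 lower (median -0.23), with Vim at 3046 CPM in aKO members and 1746 CPM in aWT members (0.80) and Twist1 at 4.72 and 18.3 CPM (-1.26), with 64.3% of its aWT UMIs in cluster 10. In strong members 2 of 13 were higher and 4 lower (median -0.25). Of 18 interferon response genes 5 were higher and 1 lower (median 0.17); in strong members 3 were higher and 3 lower (median 0.03), and Isg15, a typical interferon target, was at 57.5 CPM in aKO members and 49.7 CPM in aWT members. H2-D1, an MHC class I gene, was at 2743 CPM in aKO and 1324 CPM in aWT (1.05), while the median of 14 class I genes was -0.09. MHC class II genes were low in both libraries, with Cd74 at 15.1 CPM in aKO and 23.3 CPM in aWT. All 20 nuclear respiratory chain genes had ratios over 0 (3 higher by 1.5-fold, median 0.42), and of 15 glycolysis and hypoxia genes 3 were higher and 1 lower (median 0.17). Of the leukocyte adhesion list 2 of 16 were higher and 6 lower (median -0.30), of lineage transcription factors 2 of 18 higher and 3 lower (-0.25), and of proliferation genes 1 of 7 higher (0.13). The rule capped Mki67, which is on the proliferation list.

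Signs of handling and library moved with these differences. Of 13 heat shock and chaperone genes 9 were lower and 0 higher in aKO members (median -0.72), with Hspa1a at 639 CPM in aKO and 1700 CPM in aWT (-1.41). Of 15 immediate early genes 8 were lower and 0 higher (median -0.67), with Fos at 717 and 1429 CPM (-0.99) and Nr4a1 at 49.8 and 160 CPM (-1.59). These genes can be induced by tissue dissociation, and the median mitochondrial share was 2.48% in aKO members and 2.72% in aWT members. Their part in the BMP9 and ALK1 response, arterial and other list values was not tested.

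Markers of other endothelial classes also differed within members. General capillary identity genes summed to 2877 CPM in aKO members and 3500 CPM in aWT members (6 of 12 lower, 1 higher, median -0.53), and to 1410 and 2300 CPM in strong members. Aerocyte genes summed to 997 and 1543 CPM (7 of 12 lower, 1 higher, -0.67), venous genes to 2205 and 3764 CPM (6 of 11 lower, 1 higher, -0.65) and lymphatic genes to 3106 and 1652 CPM (5 of 9 higher, 3 lower, 0.87), the last mostly Lyve1 at 2899 and 1510 CPM. Top doublet scores covered 8.82% of aKO members and 17.1% of aWT members. The number called was set by assumed rates of 8.84% in aKO and 12.8% in aWT. Among other endothelial barcodes 8.13% were called in aKO and 12.7% in aWT. Without the called members the BMP9 and ALK1 response median was -1.17 and the arterial median -0.56. The part of mixed barcodes in the remaining values was not tested.

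Markers of cell types outside the endothelium gave few of the counts. Even so, the fibroblast, the smooth muscle and pericyte, and the mesothelial sums stood higher in members than in other endothelial barcodes. The fibroblast list of 10 genes summed to 312 CPM in aKO members and 372 CPM in aWT members, smooth muscle and pericyte genes to 92.9 and 109 CPM, and mesothelial genes to 23.9 and 163 CPM, but to 0.936 and 0.88 CPM in strong members, where Msln and Lrrn4 were at 0 in both libraries. Alveolar epithelial genes summed to 135 and 182 CPM, airway epithelial genes to 48.5 and 170 CPM, cardiac muscle genes to 18.8 and 20.4 CPM and macrophage, monocyte and neutrophil genes to 7.80 and 18.6 CPM. Lymphocyte genes summed to 0.616 and 2.62 CPM and platelet and red cell genes to 5.64 and 8.37 CPM. In aKO members the pericyte genes Cspg4, Rgs5 and Higd1b and the muscle gene Des were at 0, and the macrophage gene Adgre1 was at 0 in both libraries. The fibroblast sum was 258 CPM in aKO and 389 CPM in aWT strong members, against 58.2 and 50.4 CPM in other endothelial barcodes. Venous barcodes held 235 and 155 CPM of it. Alveolar epithelial sums went the other way, at 659 CPM in aKO and 2992 CPM in aWT other endothelial barcodes, as did airway sums, at 76.8 and 1139 CPM. The fibroblast gene Dcn was at 61.1 CPM in aKO members and 108 CPM in aWT members, with 85.4% of its aKO UMIs and 89.1% of its aWT UMIs in the 8 barcodes of cluster 11.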

How the data were processed

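The authors deposited 1 filtered matrix of UMI counts per library, which the file headers and the submitters' processing notes credit to Cell Ranger 7.2.0 on mm10. Neither the annotation release nor the intron setting was found, and both are not given in the sources used. Each count is 1 captured molecule, so a gene's value can be limited by depth, and 3' counts may miss a deleted exon. Cells came from enzyme-dissociated lung sorted for Tomato, per the labels' protocols.

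Kept barcodes held 500 genes or more and no more than 15% mitochondrial UMIs, and members were taken by the UMI rule of the report. Other arterial barcodes held at least 3 UMIs of Gja4 and Dkk2 together and were no members. Other endothelial barcodes were all endothelial barcodes that were no members. UMI sums were scaled to CPM. The log2 ratio used 5 CPM as pseudocount, the count of 2-fold genes used those with at least 50 CPM in 1 library, and the 1.5-fold counts of lists used those with at least 5 CPM in 1 library. With 1 library per group no count model or p-value was used. For shares, barcodes were thinned to 2000 UMIs, which left 886 aKO and 493 aWT members and dropped 10 and 27.

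Members were clustered with scanpy 1.11.5 and leidenalg 0.10.2 on 1500 variable genes, 20 components and 15 neighbours at resolution 0.6, with no integration of the libraries. Doublets stayed in. Scrublet's automatic threshold found none in aWT, so the highest scores were called at 0.8% per 1000 barcodes, and leaving them out is an alternative. Scripts ran on Python 3.11.15, numpy 2.4.6, scipy 1.17.1 and pandas 2.3.3, with R 4.3.3 and edgeR 4.0.16 for TMM scaling factors. The 2-fold size rule was tested on counts simulated from the summed levels of aWT members, and no other step was simulated.

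The genes named are the 12 highest and 12 lowest ratios at 50 CPM (without mitochondrial, ribosomal protein, haemoglobin, immunoglobulin, Xist, Y-linked and rule genes), up to 4 per list by size of ratio, Acvrl1, Eng, the markers, and the leading genes over the other sets (12 over other endothelial, 8 each way over other arterial barcodes). List genes with small ratios and cluster genes were named after their values had been seen. The members and the 41 lists were chosen with earlier results of these data known. Coordinates are GENCODE M21 on mm10, which gave them for 32158 of 32286 features. Promoter windows are from RefSeq GRCm38.p6. Other settings tried were the cell filter, the rule's threshold, thinning, scaling, pseudocount, minimum level, doublets, fibroblast UMIs, small clusters and shared barcodes. Some genes that these rules name are not reported here.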

Additional observations from a re-analysis of the deposited data

Results flagged for a closer look

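For Gsn and Gpm6a, aKO stood at least 2-fold above aWT in one set of cells and at least 2-fold below it in the other; with 1 library per group these differences between sets were not tested. Gsn, the gelsolin gene, was at 356 CPM in aKO members and 126 CPM in aWT members, a log2 ratio of 1.46, and at 25.2 CPM in aKO and 57.2 CPM in aWT other endothelial barcodes (-1.04). Gpm6a, a membrane glycoprotein gene, was at 34.2 CPM in aKO members and 87.6 CPM in aWT members (-1.24), and at 143 CPM in aKO and 37.3 CPM in aWT other endothelial barcodes (1.80). In strong members the ratios were 0.71 for Gsn and -0.24 for Gpm6a. Both kept the sign they had over all members, but neither reached 2-fold there, and Gpm6a differed by less than 1.5-fold.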

How the results depend on the processing

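The share of members moved most with the rule: with 2 rule UMIs it was 9.95% in aKO and 4.07% in aWT, with 5 it was 7.22% and 2.80%, with the rule applied after thinning 5.84% and 2.73%, with at least 0.2% of UMIs in rule genes 3.91% and 2.06%, and with a stricter cell filter (1000 genes, 10% mitochondrial UMIs) 9.31% in aKO. The aKO share was the higher under every setting of the share tried. The arterial identity median was -0.32 with the rule after thinning and -0.29 in strong members, and the BMP9 and ALK1 response median was -0.91 in strong members. At 2-fold, 205 genes were lower with a minimum of 20 CPM, 77 with 100 CPM, and 360 lower and 177 higher with no minimum. Signs turned for a few values. With the rule after thinning, Gpc3 was 0.07, Krt19 0.30, Cyp2f2 1.48 and Foxj1 0.33. In strong members the MHC class II median was 0.18, Gja1 0.32, Aplnr -0.04, Scgb1a1 0.01 and Cyp2f2 0.01. Without clusters under 50 members, Dcn was 0.13. The causes were not tested. Of 2738 values computed under other settings, 2217 stayed near the reported value, 511 moved and 10 turned sign. The median of all genes lay between 0.007 and 0.063. The grade by 0.2%, the small clusters and the shared barcodes were chosen after seeing the data. No paired analysis was possible because each group has 1 library. Depth was lower in aWT, and genes under 5 CPM are not read.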

Other observations

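Trp53i11 and Tspan18 lie end to end on chromosome 2 on opposite strands, with 0 bases between their annotated ends. In members Trp53i11 was at 70.2 CPM in aKO and 8.89 CPM in aWT, a log2 ratio of 2.44, and Tspan18 was at 34.9 CPM in aKO and 122 CPM in aWT (-1.67). In other endothelial barcodes the ratios were 2.64 and -1.32. The counting of reads at their shared border was not examined.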
